A study of Mus musculus with 6 samples.

Results

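D1 medium spiny neurons, the neurons of the direct pathway, were examined in single-nucleus RNA sequencing of mouse striatum. A nucleus was taken as a D1 nucleus where the deposited values of Rgs9 and Pde10a summed to at least 8, those of Drd1, Tac1, Pdyn, Isl1 and Ebf1 to at least 2, those of Drd2, Adora2a and Penk to at most 1, those of Otof, Col11a1, Casz1 and Tshz1 to at most 3 and those of Mog and Mag to at most 1. Of 48834 nuclei, 7762 met this rule. Wild-type mice (3) were compared with Celsr3 heterozygotes (3), with 1 library for each labelled biological replicate. Striatum was dissected and frozen before nuclei were extracted, and all libraries were 10x Genomics 3′ libraries sequenced on 1 lane. The labels give neither the Celsr3 allele nor the age, sex, strain or preparation batch of the mice. Each library was taken to be 1 mouse, and all tests measure the spread between these libraries.

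Medium spiny neurons are the GABAergic projection neurons that make up most of the neurons of the striatum. Those of the direct pathway carry the dopamine receptor Drd1, which acts through the stimulatory G protein Gnal and the adenylyl cyclase Adcy5 to raise cAMP, and they release the peptides made from Tac1 and Pdyn. They send axons to the substantia nigra and the internal pallidal segment, while those of the indirect pathway carry Drd2 and Penk and project to the external pallidal segment. Both kinds lie in striosomes and the surrounding matrix, and both extend from the dorsal striatum to the nucleus accumbens. Celsr3 is a seven-pass cadherin that acts with Fzd3 in the growth of axon tracts.

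Wild-type replicates 1 to 3 held 1009, 1586 and 1149 D1 nuclei, and heterozygous replicates 1 to 3 held 1393, 1405 and 1220. The values are whole-number, depth-corrected scores per gene and nucleus, so the number of molecules read per nucleus is unknown. The median number of genes detected per D1 nucleus was 3346 ± 42.1 for wild type and 3406 ± 128 for heterozygotes (SD, n = 3 each; two-sided exact permutation p = 0.5). Among D1 nuclei, 9 barcodes occurred in 2 libraries.

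The values that chose the nuclei are given as a description. Ebf1, a transcription factor of direct-pathway neurons, had a mean value per nucleus of 3.74 over the 6 libraries, and Drd1 had a mean of 1.01. Tac1, the substance P precursor, stood at 1.33, Pdyn, the dynorphin precursor, at 0.396, and Isl1, a transcription factor of direct-pathway fate, at 0.258. All 5 of these markers were above 0 in 277 nuclei, 4 in 1324, 3 in 2762, 2 in 2465 and 1 alone in 934. The 660 D1 nuclei whose 5 markers summed to exactly 2 had a mean Ebf1 value of 0.624 and a mean Pde10a value of 18.1. The 719 nuclei just outside, with a sum of 1 and the other criteria met, had means of 0.145 and 14.4. The limit on the eccentric-type markers Otof, Col11a1, Casz1 and Tshz1 left out 425 nuclei, and the limit on the myelin genes Mog and Mag left out a further 276.

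Genes that the rule did not use were compared with D2 nuclei, 6930 nuclei chosen by the mirror of the same rule, as a description of the chosen cells. Of 9 genes listed as enriched in D1 neurons, 8 had higher levels in D1 nuclei. Zfp521, a zinc finger transcription factor, averaged 0.899 in D1 and 0.0639 in D2 nuclei. Eya1, a transcriptional coactivator, averaged 0.308 and 0.0522, and Chrm4, the muscarinic receptor coupled to inhibition of adenylyl cyclase, 0.0353 and 0.00132. Pou3f1 went the other way, at 0.152 in D1 and 0.188 in D2 nuclei. All 7 genes listed as enriched in D2 neurons were lower in D1 nuclei, among them Gpr6, an orphan receptor of the indirect pathway, at 0.0351 against 0.352.

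Among 4655 genes with a mean of at least 0.3 in 1 of the classes, 45 had a log2 ratio of D1 to D2 above 1 and 29 a ratio below -1. The 8 highest ratios were those of Impg1, Sntg2, Lingo2, Zfp521, Il1rapl2, Cntnap3, Mdk and Eya1. Lingo2, a leucine-rich repeat membrane protein, had a mean of 16.7 in D1 and 1.18 in D2 nuclei, and Il1rapl2, a synaptic adhesion protein, 3.99 and 0.483. Mdk, the secreted growth factor midkine, had means of 0.416 and 0.0526. The 8 lowest were those of Oprd1, Grik3, Chrm3, Nell1, Nell1os, Necab1, Ptprm and Plxdc1. Grik3, a kainate receptor subunit, averaged 0.0751 in D1 and 1.74 in D2 nuclei, and Oprd1, the delta opioid receptor, 0.0211 and 0.647. In each of these 16 genes all 6 libraries gave a log2 ratio of the same sign, from 1.96 for Cntnap3 in 1 library upward and from -2.80 for Nell1 in 1 library downward.

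Clustering the D1 nuclei among themselves, without the genes of the rule, gave 11 sub-clusters, numbered from 0. At the resolution used, the label held for 6 of them, which together hold 7028 nuclei (90.5%). The other 5 hold 734 nuclei (9.46%), and their leading genes go against it. Sub-cluster 10 (82 nuclei, endothelial-like) was led by Slco1a4, Flt1, Mecom, Adgrl4 and Hmcn1, and had a mean Ebf1 value of 7.49 beside a mean Drd1 value of 0.183. Sub-cluster 9 (123 nuclei, microglia-like) was led by Arhgap45, Gm10790, Apbb1ip, Gm2629 and Fyb. Sub-cluster 7 (36 nuclei, oligodendrocyte precursor-like) was led by Pdgfra, Gm4876, C430049B03Rik, E130114P18Rik and Bcas1os2. Sub-cluster 6 (238 nuclei) was led by Slc38a11, Atp13a5, Vtn, Lama2 and Slc6a20a and stayed unnamed, with a median of 1742 genes per nucleus. Sub-cluster 5 (255 nuclei) was led by Zfp804b, Nxph1, Kcnc2, Tafa1 and Unc5d, carried markers of several neuron classes and stayed unnamed. These nuclei were kept in the main results, and the count of called genes is also given without them. Finer clustering gave a sub-cluster of 248 nuclei that was higher in 4 of 6 eccentric markers. Its leading genes Htr4, Pde11a and Ntn1 also lead sub-cluster 2.

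**Figure D1:**
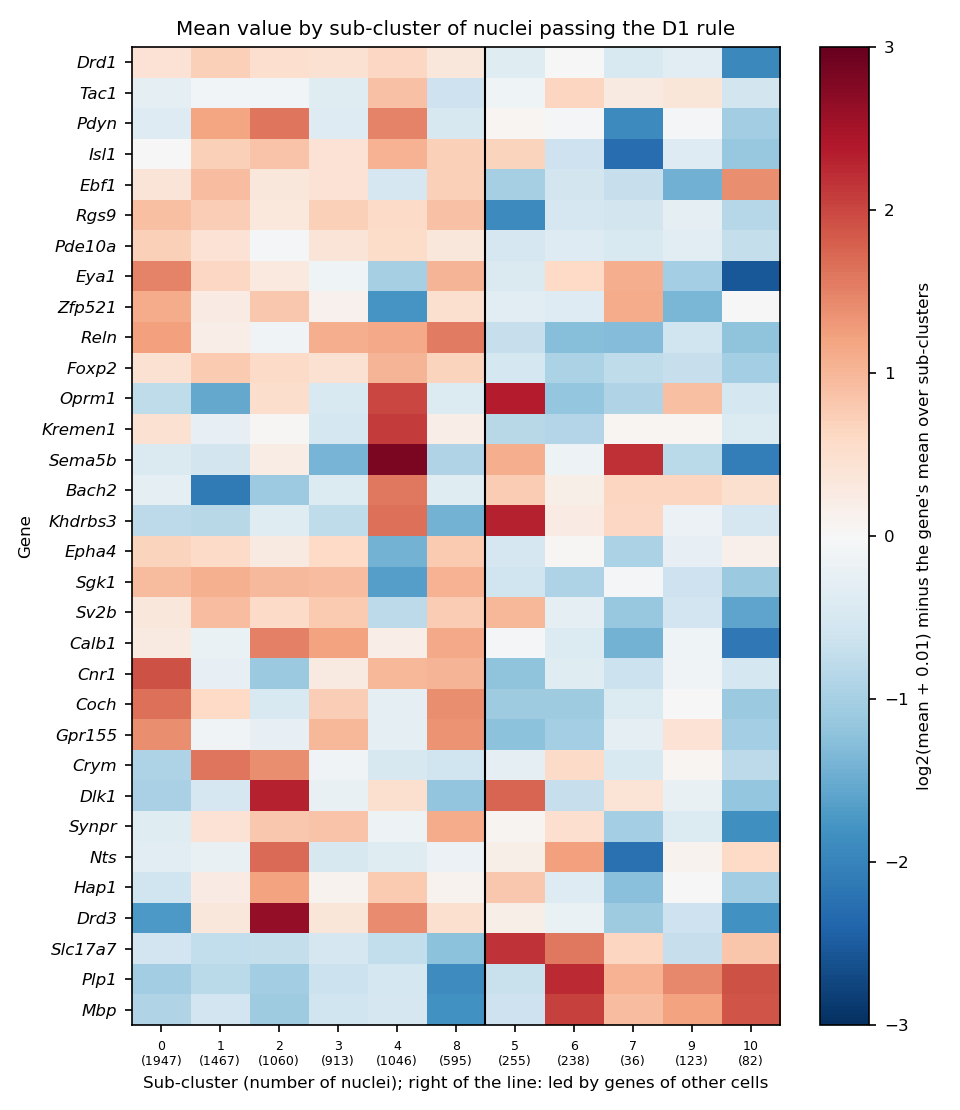
Levels of the rule's genes and of marker genes in the 11 sub-clusters of nuclei that met the D1 rule, as log2(mean value + 0.01) minus each gene's mean over sub-clusters; numbers in brackets are nuclei. Sema5b, Bach2 and Kremen1 are highest in sub-cluster 4, Drd3 and Dlk1 in sub-cluster 2 and Cnr1 in sub-cluster 0, while the 5 columns right of the line hold the nuclei whose leading genes go against the label.

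The 6 remaining sub-clusters followed known divisions of the striatum in part. Sub-cluster 4 (1046 nuclei, striosome-like) was higher in all 7 striosome markers. It was led by Gm16083, Sema5b, 4930555F03Rik, Fbn2 and C130073E24Rik. The mu opioid receptor Oprm1 averaged 1.10 there and 0.0859 to 0.387 in the other 5, and the transcriptional regulator Bach2 averaged 2.55 there and 0.187 to 0.694 in the others. Conversely, Sgk1, a kinase, and Epha4, an ephrin receptor of the matrix, averaged 0.487 and 0.678 there, against 2.97 to 3.23 and 2.22 to 3.13. Tac1 was highest and Ebf1 lowest in sub-cluster 4 among these 6, at 2.38 and 1.99.

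Sub-cluster 2 (1060 nuclei, ventral striatum-like) was higher in 5 of 11 ventral markers: Crym, Dlk1, Zcchc12, Nts and Hap1. It was also higher in 3 of 8 matrix markers. It was led by Pde1a, Pde11a, Htr4, Drd3 and Ntn1, genes of 2 phosphodiesterases, a serotonin receptor, a dopamine receptor and the guidance cue netrin-1. Drd3 averaged 0.481 in it and 0.0139 to 0.200 in the other 5. Of 5 genes listed for Drd3-bearing ventral neurons, only Drd3 was higher in sub-cluster 2. Grm8, another of them, averaged 0.830 in it and 1.42 to 4.13 in the other 5. Crym was higher still in sub-cluster 1, at 0.613 against 0.526. Pdyn averaged 0.738 in sub-cluster 2, 0.682 in sub-cluster 4, 0.548 in sub-cluster 1 and 0.166 to 0.179 in the rest. Sub-cluster 0 (1947 nuclei, dorsal striatum-like) was higher in 3 of 4 dorsal markers, Cnr1, Coch and Gpr155, and was led by Astn2, Robo3, Gpr139, Il1rapl2 and Meis1. Cnr1, the cannabinoid receptor, averaged 5.10 there.

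The remaining sub-clusters stayed unnamed, since under 3 markers of any 1 region were higher in them. Sub-cluster 1 (1467 nuclei) was led by Gm38505, Sox2ot, Sulf1, Slit2 and Crym, sub-cluster 3 (913 nuclei) by Abi3bp, Gm2164, Ptchd4, Gm42705 and Pigk, and sub-cluster 8 (595 nuclei) by Gm6260, Dkk2, Gm42707, Vat1l and Gm42705. All of these are descriptions of clustered values, with no test.

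The sub-clusters were unevenly spread over libraries, and wild-type replicate 1 stood apart. Sub-cluster 1 held 43.8% of its D1 nuclei, against 16.0% and 15.1% in the other wild-type libraries and 6.25%, 15.2% and 24.3% in heterozygous ones. Sub-cluster 8 held 1.39% of its nuclei, against 3.30% to 14.1% in the other 5 libraries. Sub-cluster 2 held 6.05%, 11.2% and 12.9% of the wild-type and 18.6%, 19.5% and 11.6% of the heterozygous D1 nuclei. Drd3, 1 of its leading genes, differed in mean between the groups, so these sizes are given as values and not compared. Sub-cluster 4 was the most even, with 12.3% to 15.3% of each library. The part of dissection in these shares was not tested. Calls on the genes named by rule that change when wild-type replicate 1 is left out are given beside those genes.

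**Figure D2:**
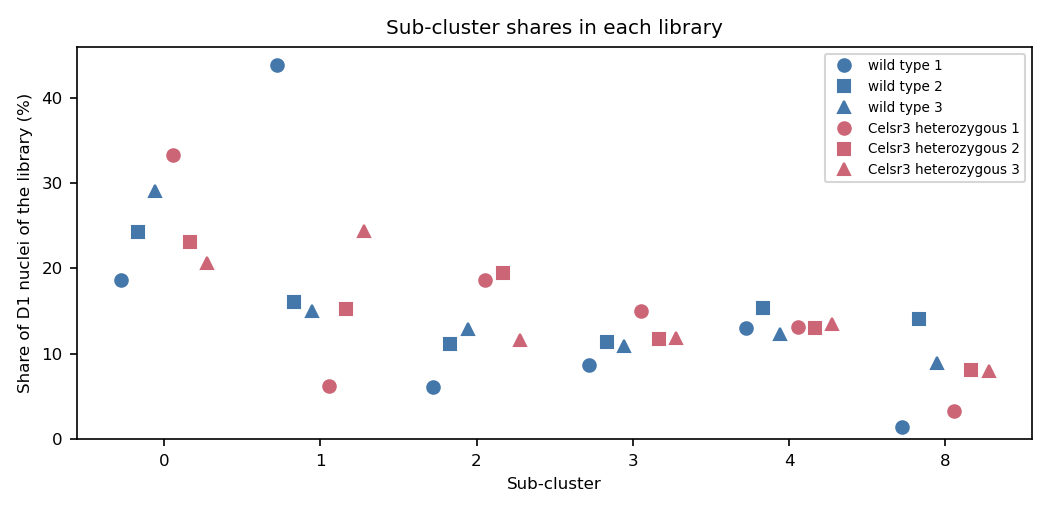
Share of each library's D1 nuclei, in percent, in the 6 sub-clusters for which the label held; each point is 1 library. Wild-type replicate 1 lies at 43.8% in sub-cluster 1, above the 6.25% to 24.3% of the other 5 libraries, and sub-cluster 4 holds 12.3% to 15.3% of every library.

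The share of D1 nuclei among all nuclei differed between the groups by less than the spread between libraries. By library they were 13.0%, 20.1% and 14.2% (wild-type replicates 1 to 3) and 17.7%, 16.8% and 13.7% (heterozygous replicates 1 to 3). The means were 15.8% ± 3.78 and 16.1% ± 2.06 (SD, n = 3 each; two-sided exact permutation p = 0.9). Measured against D2 nuclei, D1 nuclei were 52.4%, 50.6% and 50.5% of the sum of both classes in wild-type libraries and 55.3%, 54.7% and 53.8% in heterozygous libraries. The groups did not overlap, with means of 51.2% ± 1.06 and 54.6% ± 0.740 (SD, n = 3 each; two-sided exact permutation p = 0.1, the smallest that 3 against 3 libraries can give). A stricter rule asked for higher marker sums and for no value of the other class's markers or of 6 genes of other cells. Under that rule the shares overlapped, at 53.7% ± 2.65 and 56.6% ± 4.52 (SD, n = 3 each; two-sided exact permutation p = 0.5).

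The targeted gene checks the labels. Celsr3 (chr9:108826320-108852969 on the plus strand, GRCm38) had mean values per D1 nucleus of 0.141, 0.169 and 0.170 (wild-type replicates 1 to 3) and 0.0761, 0.102 and 0.0934 (heterozygous replicates 1 to 3). Every heterozygous library lay below every wild-type library. The groups averaged 0.160 ± 0.0165 and 0.0904 ± 0.0131 (SD, n = 3 each), a ratio of heterozygous to wild type of 56.6%. The difference of -0.76 ± 0.14 (SE) on the log2(value + 0.01) scale, which understates differences of low genes, did not pass the adjustment over all genes (limma, Benjamini-Hochberg adjusted p = 0.157). It passed without wild-type replicate 1 (adjusted p = 0.0324) and with array weights, which give noisy libraries less weight (0.0249). Wild-type replicate 1 had the lowest array weight, 0.406 against 0.548 to 2.49 in the others, so these alternatives are not separate. With another library left out instead, Celsr3 did not pass (adjusted p = 0.286 to 0.448). In the 6 sub-clusters for which the label held, the mean was lower in heterozygous libraries in each, and the groups did not overlap in 5. The gaps were narrow in sub-cluster 2 (0.1277 to 0.1284) and sub-cluster 4 (0.1333 to 0.1374). In sub-cluster 8 wild-type replicate 1 had only 14 nuclei. The same libraries are counted in every sub-cluster. D2 nuclei gave means of 0.123 and 0.0792, and the effect was not shown to differ between the classes (difference of log2 changes -0.19 ± 0.14 SE, adjusted p = 0.980). Since the allele is not given, whether the 3′ reads lie within the altered part of the gene is not known.

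The comparison of genotypes across genes asked which transcripts of D1 nuclei differed between Celsr3 heterozygotes and wild type. The limma test called 4 of 13429 genes at an adjusted p under 0.05, or 0.0298%. Mid1 and Gm15726 rose and A330015K06Rik and Rpl29 fell in heterozygous libraries, and Gm15726 passed the filter on low values, a mean of at least 0.02, only through the heterozygous libraries. An unadjusted p under 0.05 was reached by 1246 genes (9.28%), 653 of them higher (4.86%) and 593 lower (4.42%), and the groups did not overlap for 2102 genes (15.7%; 10.4% higher and 5.28% lower in heterozygous libraries). The share of higher genes among those 1246 was 52.4%, and scaling libraries by size factors moved it to 32.8%. It was 70.6% with array weights, 65.5% under the stricter rule and 35.4% to 67.4% with 1 library left out, the ends without heterozygous replicates 2 and 1. Of all genes tested, 63.5% had a log2 change above 0, with a median of 0.05. Without wild-type replicate 1 the test called 160 genes, all 4 among them. Without any 1 of the 3 heterozygous libraries, or without the 5 sub-clusters of other cells, it called 1 gene, Mid1, and in these fits Gm15726 was below the filter and not tested.

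Mid1, a microtubule-associated ubiquitin ligase, lies at chrX:169685199-170005736 on the plus strand (GRCm38). Its mean values per D1 nucleus were 0.0406, 0.0498 and 0.0418 (wild-type replicates 1 to 3) and 0.209, 0.226 and 0.266 (heterozygous replicates 1 to 3). The groups were widely separated, with the lowest heterozygous library far above the highest wild-type one. The change was 2.17 ± 0.14 on the log2 scale (SE, limma adjusted p = 0.000773). It passed in each of the 14 alternatives in which Mid1 was tested, with adjusted p between 7.0e-05 and 0.0310, and under the stricter rule its values were too low to be tested. In each of the 6 sub-clusters the groups did not overlap, with wild-type libraries at 0.0153 to 0.107 and heterozygous ones at 0.153 to 0.392. D2 nuclei of the same libraries had means of 0.0436 and 0.207 (log2 difference 2.10 ± 0.25 SE, adjusted p = 0.0705), and no difference between the classes was shown (0.07 ± 0.22 SE, adjusted p = 0.998).

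Gm15726, an antisense RNA annotated within Mid1 at chrX:169979047-169985232 on the minus strand, had means of 0.00297, 0.00252 and 0.00435 in wild-type and 0.0424, 0.0384 and 0.0484 in heterozygous libraries. Its change was 2.00 ± 0.19 on the log2 scale (SE, adjusted p = 0.0115) and 0.80 with a pseudocount of 0.05, since its wild-type values are below the pseudocount of 0.01. With group means of 0.00328 and 0.0430 it reached the filter only through the heterozygous libraries, so that a gene at this level had to differ to be tested, and its call is read as no more than a description. Use of strand in the counting is not stated, so reads of Mid1 and Gm15726 cannot be told apart.

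Rpl29, a protein of the large ribosomal subunit, lies on the chromosome of Celsr3, at chr9:106429454-106431568, with its start at -2.40 Mb from that of Celsr3. Its mean values were 0.420, 0.296 and 0.338 (wild-type replicates 1 to 3) and 0.152, 0.144 and 0.162 (heterozygous replicates 1 to 3), so the groups did not overlap. The change was -1.14 ± 0.13 on the log2 scale (SE, adjusted p = 0.0369), and the ratio of heterozygous to wild-type means was 43.4%. In all 6 sub-clusters the heterozygous libraries lay below the wild-type ones, at 0.0825 to 0.207 against 0.214 to 0.443 over all of them. The call was lost without wild-type replicate 3 (adjusted p = 0.153) and without heterozygous replicates 1, 2 or 3 (0.221, 0.387 and 0.107), with log2 changes between -1.18 and -1.10. It was also lost without the sub-clusters of other cells (0.0551) and under the stricter rule (0.332). D2 nuclei had means of 0.356 in wild-type and 0.169 in heterozygous libraries (-1.03 ± 0.15 SE, adjusted p = 0.0975). No difference between the classes was shown (-0.11 ± 0.09 SE, adjusted p = 0.980). Rpl29 has processed pseudogenes, so reads could be split between copies.

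Within 10 Mb of the start of Celsr3, 162 genes were tested in D1 nuclei. An unadjusted p under 0.05 was reached by 25 of them (15.4%), 13 lower and 12 higher, beside 9.28% of all genes, and Rpl29 was the 1 called gene. Trank1, a gene of unsettled function at 2.48 Mb from the start of Celsr3, averaged 1.60, 1.51 and 1.42 in wild-type and 1.98, 2.06 and 1.90 in heterozygous libraries (0.39 ± 0.07 SE, adjusted p = 0.157). Lars2, the mitochondrial leucyl-tRNA synthetase, lies farther off on the same chromosome, at 14.5 Mb, and averaged 1.04 ± 0.0945 and 1.43 ± 0.0547 (SD, n = 3 each; 0.45 ± 0.08 SE on the log2 scale, adjusted p = 0.157). Both passed without wild-type replicate 1 (adjusted p = 0.0168 for Trank1 and 0.0301 for Lars2) and with array weights (0.020 and 0.0292). With another library left out instead, neither passed (adjusted p = 0.240 to 0.597).

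A330015K06Rik, a non-coding RNA at chr3:65133060-65302685 on the minus strand, is annotated antisense to the potassium channel subunit gene Kcnab1. Its mean values were 13.9, 13.8 and 13.9 (wild-type replicates 1 to 3) and 9.61, 8.86 and 9.55 (heterozygous replicates 1 to 3). The wild-type libraries had an SD of 0.0814, and all heterozygous libraries lay below them. The change was -0.57 ± 0.06 on the log2 scale (SE, adjusted p = 0.0243). Kcnab1 itself, on the opposite strand, averaged 11.4 ± 0.835 and 10.8 ± 0.617 (SD, n = 3 each), which is less apart than the libraries within a group (adjusted p = 0.784). The call on A330015K06Rik was lost without wild-type replicates 2 or 3 (adjusted p = 0.0771 and 0.153) and without heterozygous replicates 1, 2 or 3 (0.183, 0.387 and 0.0842). It was lost too with size-factor scaling (0.0793), with no filter on low values (0.0640), without the sub-clusters of other cells (0.0551) and under the stricter rule (0.171). The log2 change lay between -0.62 and -0.43 in all 15 alternatives run.

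**Figure D3:**
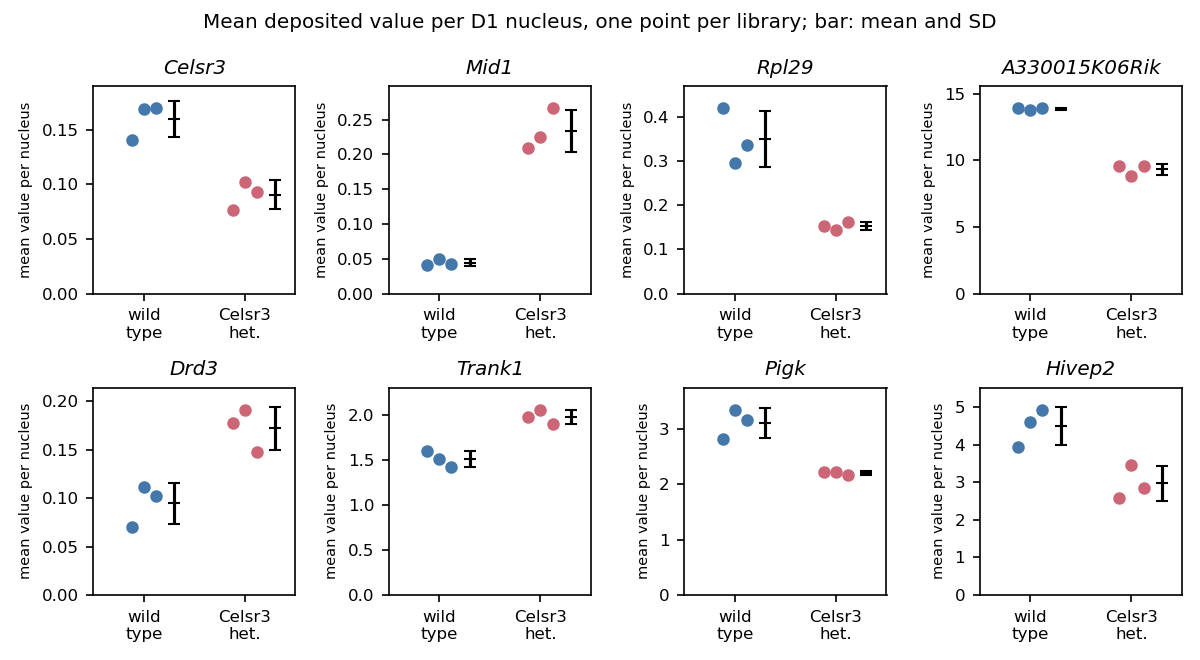
Mean deposited value per D1 nucleus for 8 genes, with 1 point per library (blue, wild type; red, Celsr3 heterozygous) and the mean and SD of each group as a bar beside the points; each vertical axis starts at 0. The groups do not overlap in any of the 8 panels. For Drd3, Trank1, Pigk and Hivep2 this was a condition of being chosen, and it held for 15.7% of all genes tested. Among the 8 genes only Mid1, Rpl29 and A330015K06Rik passed the adjustment over all genes.

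Non-coding genes that overlap a gene of the opposite strand were frequent among the lower genes. They were 9.43% of the genes tested, 60.7% of the 593 genes lower at an unadjusted p under 0.05 and 3.37% of the 653 higher ones. Their median log2 change was -0.19, beside 0.06 for the other genes. The lower ones named by the rule, besides the called A330015K06Rik, were Arhgap20os, Csmd2os, Sorbs2os and Pcsk2os2. The called Gm15726, annotated within Mid1, is of the same kind and was higher. Csmd2os averaged 0.259 ± 0.0114 in wild type and 0.142 ± 0.0150 in heterozygotes, and Sorbs2os 3.12 ± 0.106 and 2.09 ± 0.267 (SD, n = 3 each). Arhgap20os came closest to a call, at 0.374 ± 0.0227 and 0.225 ± 0.00456 (SD, n = 3 each; -0.71 ± 0.09 SE, adjusted p = 0.0555), and passed with size-factor scaling (adjusted p = 0.0393). Without wild-type replicate 1 these 4 passed, with adjusted p of 0.0127 for Arhgap20os and Csmd2os, 0.0203 for Sorbs2os and 0.0379 for Pcsk2os2. With array weights they passed too, at 0.00762 for the first 3 and 0.0249 for Pcsk2os2, and Sorbs2os passed with equal sub-cluster weights (0.0412). In D2 nuclei the 4 were lower as well, without a call (adjusted p = 0.0975 to 0.178). Their log2 changes there were -0.48 (Arhgap20os), -0.84 (Csmd2os), -0.61 (Sorbs2os) and -0.40 (Pcsk2os2). Malat1, an abundant RNA retained in the nucleus, averaged 626, 626 and 610 in wild-type and 604, 454 and 515 in heterozygous libraries (adjusted p = 0.530). Its part in the lower antisense genes was not tested.

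Among the other higher genes of smallest p, none of which passed with all libraries weighted alike, Zbtb20, a transcriptional repressor, averaged 3.28 ± 0.157 and 4.19 ± 0.265, and Rcan2, a calcineurin regulator, 1.91 ± 0.0376 and 2.37 ± 0.0492 (SD, n = 3 each). Khdrbs2, an RNA-binding splicing factor, averaged 0.735 and 0.986, Cdh12, a classical cadherin, 0.817 and 1.05, Tubb3, the neuronal tubulin, 0.444 and 0.590, and Tgfbr3, a TGF-beta co-receptor, 0.554 and 0.722. The log2 differences of these 6 genes were 0.31 to 0.42, with adjusted p of 0.181 to 0.209. Without wild-type replicate 1, Rcan2, Tubb3 and Tgfbr3 passed (adjusted p = 0.0424, 0.0479 and 0.0369). With array weights these 3 passed (0.0421, 0.0378 and 0.0301), as did Zbtb20 (0.0398) and Khdrbs2 (0.0310). Among the lower genes, Pigk, a subunit of the complex that attaches GPI anchors, averaged 2.81, 3.34 and 3.15 in wild-type and 2.22, 2.22 and 2.17 in heterozygous libraries (-0.49 ± 0.08 SE, adjusted p = 0.0975). Pigk also leads sub-cluster 3, and it passed when the 6 sub-clusters were given equal weights (adjusted p = 0.0193), without wild-type replicate 1 (0.00322) and with array weights (0.00766). Hivep2, a zinc finger transcription factor, averaged 4.50 ± 0.498 and 2.97 ± 0.458 (SD, n = 3 each; adjusted p = 0.181). Angptl1, a secreted protein, averaged 0.323 and 0.210 (adjusted p = 0.117), and Olfr55, an olfactory receptor gene, 0.315 and 0.185 (adjusted p = 0.0934). Hivep2, Angptl1 and Olfr55 passed without wild-type replicate 1 (adjusted p = 0.0152, 0.0424 and 0.0301) and with array weights (0.0326, 0.0273 and 0.0235). Angptl1 overlaps Ralgps2 on the opposite strand, and Pigk overlaps St6galnac5 and a pseudogene of the called gene Rpl29, Rpl29-ps1.

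Drd3, the dopamine receptor that couples to inhibition of adenylyl cyclase, had mean values of 0.0704, 0.112 and 0.102 (wild-type replicates 1 to 3) and 0.177, 0.191 and 0.148 (heterozygous replicates 1 to 3). The groups did not overlap, a condition for naming it among the genes of smallest p, and the lowest heterozygous library lay above the highest wild-type one. The difference of 0.81 ± 0.17 on the log2 scale (SE) did not pass the adjustment (adjusted p = 0.200), and was 0.64 without wild-type replicate 1 (adjusted p = 0.0688). With array weights it was 0.75 and passed (adjusted p = 0.0421). When each of the 6 sub-clusters had the same weight in every library the difference was 0.71 (adjusted p = 0.258). Within sub-cluster 2 the wild-type means were 0.197, 0.390 and 0.338 and the heterozygous ones 0.618, 0.540 and 0.504. The groups also did not overlap in sub-clusters 4 and 8, and did in sub-clusters 0, 1 and 3.

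**Figure D4:**
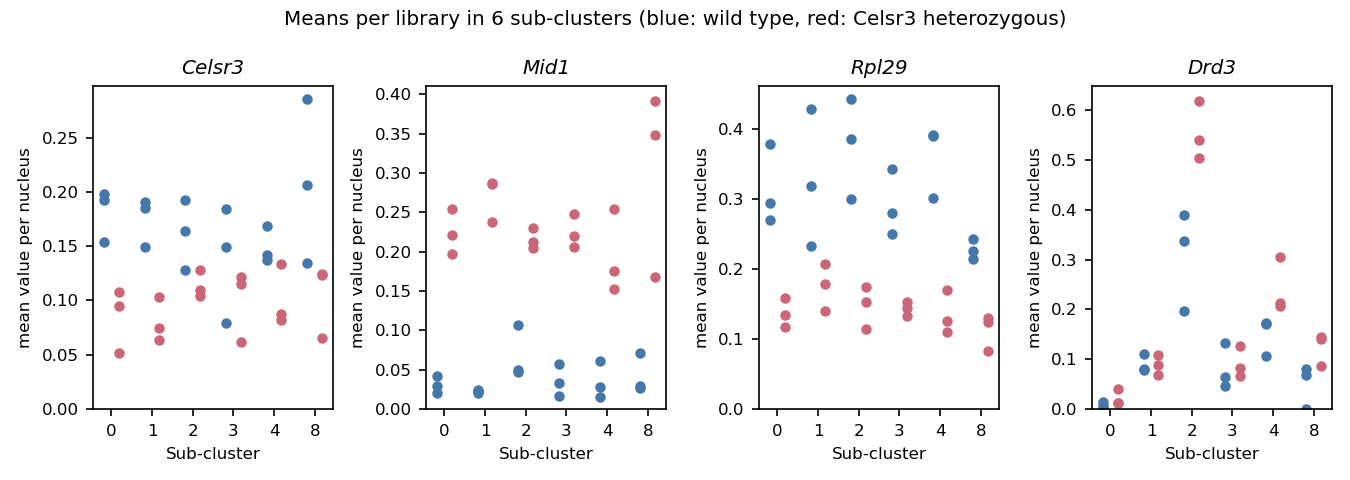
Mean deposited value per nucleus of Celsr3, Mid1, Rpl29 and Drd3 in the 6 sub-clusters for which the label held, with 1 point per library (blue, wild type; red, Celsr3 heterozygous). Mid1 and Rpl29 do not overlap between groups in any of the 6, Celsr3 does not in 5 and Drd3 does not in 3.

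With 0.0298% of all genes called, 0 calls in a list of this kind says nothing about the list, and the lists are described by their counts and medians. In the signalling chain of the D1 receptor, of 20 genes from the G protein to its targets, 13 were higher and 7 lower, with a median log2 change of 0.05, the same as that of all genes. Without wild-type replicate 1 the count was 13 again and the median 0.08 (0.05 for all genes). With matched nuclei they were 16 and 0.06 (0.02 for all genes). With size-factor scaling 11 were higher. That scaling shifts the whole table, from 8528 to 6962 higher of 13429 and from a median of 0.05 to 0.01, and the other counts given with that scaling are to be read against this shift. Ppp1r1b, the DARPP-32 phosphatase inhibitor, averaged 0.713, 0.711 and 0.643 in wild-type and 0.745, 0.775 and 0.850 in heterozygous libraries (0.19 ± 0.08 SE, adjusted p = 0.522). Adcy5, the main striatal adenylyl cyclase, averaged 4.55 ± 0.0957 and 4.95 ± 0.0658 (SD, n = 3 each), without overlap (adjusted p = 0.559). Gnal, the G protein alpha subunit, averaged 5.07 ± 0.549 and 4.98 ± 0.0288 (SD, n = 3 each), means that lay closer than the wild-type libraries did. The phosphodiesterases Pde1b and Pde2a differed by -0.02 and -0.03 on the log2 scale.

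Of 9 ventral striatal genes tested of 11, 8 were higher, with a median log2 change of 0.30, and the 4 dorsal genes were all lower, with a median of -0.10. The median of the ventral genes was 0.36 without wild-type replicate 1 and 0.29 with equal weights for sub-clusters, and the count was 8 of 9 with size-factor scaling, 7 of 9 with equal weights and 8 of 10 without wild-type replicate 1. The dorsal list had a median of -0.26 without wild-type replicate 1, with 1 of 4 genes higher, and 1 of 4 was also higher with equal weights, with nuclei matched on genes per nucleus and without the sub-clusters of other cells. Dlk1, a Notch-related membrane protein, averaged 0.0248, 0.0454 and 0.0566 in wild-type and 0.0553, 0.0940 and 0.0803 in heterozygous libraries, and the groups overlapped (0.75 ± 0.26 SE, adjusted p = 0.417). In sub-cluster 2 the share of wild-type D1 nuclei was 6.05% to 12.9% and that of heterozygous ones 11.6% to 19.5%, and the part of this mix in the ventral genes was not tested beyond the equal weights. Of 5 genes of Drd3-bearing ventral neurons 4 were tested, 3 of them higher. Grm8, a metabotropic glutamate receptor, was the lower one, at 3.47, 2.78 and 2.59 in wild-type and 1.64, 1.83 and 2.82 in heterozygous libraries (-0.52 ± 0.19 SE, adjusted p = 0.434).

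Striosome and matrix markers had medians of 0.00 and 0.07, with 4 of 7 and 7 of 8 genes higher. With size-factor scaling 1 of 7 and 6 of 8 were higher, and without wild-type replicate 1 the counts were 0 of 7 and 5 of 8, with medians of -0.12 and 0.02. Sema5b, a semaphorin, averaged 0.443 ± 0.109 and 0.335 ± 0.0801 (SD, n = 3 each; adjusted p = 0.573). Sv2b, a synaptic vesicle protein, averaged 0.867 ± 0.0553 and 1.05 ± 0.0531, without overlap (SD, n = 3 each; 0.27 ± 0.08 SE, adjusted p = 0.338).

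Receptors and channels that set the input to these neurons had medians near or below the 0.05 of all genes. Of 15 glutamate receptor and scaffold genes 9 were higher (median 0.01), and 6 with size-factor scaling. Their median was 0.03 without wild-type replicate 1 and 0.04 with matched nuclei. Shank3, a scaffold of excitatory synapses, averaged 0.644 ± 0.0337 and 0.746 ± 0.0466, without overlap (SD, n = 3 each; adjusted p = 0.474). Of 14 GABA receptor genes 8 were higher (median 0.04), and none had an unadjusted p under 0.05. Of 21 genes of potassium, sodium and calcium channels 15 were higher (median 0.03), and 7 with size-factor scaling. Kcnq5, a subunit of the M-type potassium channel, averaged 19.5 ± 0.411 and 21.7 ± 0.434, without overlap (SD, n = 3 each; 0.15 ± 0.06 SE, adjusted p = 0.457).

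Of 16 receptors for neuromodulators 13 were tested, 9 of them higher and 4 lower, with a median of 0.08, and 0 were called. Oprk1, the kappa opioid receptor for dynorphin, averaged 0.310, 0.257 and 0.279 in wild-type and 0.314, 0.430 and 0.348 in heterozygous libraries (0.35 ± 0.13 SE, adjusted p = 0.444). The groups were separated by the narrow gap between 0.310 and 0.314. Htr2c, a serotonin receptor, averaged 3.17 ± 0.307 and 2.74 ± 0.173 (SD, n = 3 each; -0.20 ± 0.09 SE, adjusted p = 0.519), and Htr6, another, averaged 0.0496 and 0.0679 (adjusted p = 0.529). Without wild-type replicate 1 the list had 6 of 13 higher and a median of -0.01, and with matched nuclei 6 of 12 and 0.01. With size-factor scaling it had 7 of 13 and 0.04. The summed level of the 16 genes went the other way, at 8.44 to 8.97 in wild-type and 7.68 to 8.13 in heterozygous libraries.

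Partners of Celsr3 in planar cell polarity, the pathway that aligns cells and steers axon growth, were tested in 10 of 14 cases. Of these 9 were higher and Prickle1 was lower, with a median of 0.13 and 0 called. The count was 9 of 10 with size-factor scaling, 9 of 11 without wild-type replicate 1 and 8 of 10 with nuclei matched on genes per nucleus, where the median was 0.07. Fzd3, the receptor that acts with Celsr3 in axon growth, averaged 0.595, 0.528 and 0.491 in wild-type and 0.638, 0.683 and 0.633 in heterozygous libraries. The groups did not overlap (0.28 ± 0.09 SE, adjusted p = 0.401). Celsr2, the paralogue of Celsr3, averaged 0.233 ± 0.0256 and 0.268 ± 0.0107 (SD, n = 3 each; adjusted p = 0.597), and Celsr1 was below the filter, at 0.00937 and 0.00743. The 20 genes of axon guidance had 12 higher and a median of 0.06, which was 0.01 both without wild-type replicate 1 and with size-factor scaling. Nrp2, a semaphorin co-receptor, averaged 0.0813, 0.105 and 0.133 in wild-type and 0.157, 0.147 and 0.180 in heterozygous libraries, without overlap (0.57 ± 0.17 SE, adjusted p = 0.355).

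Genes that respond to activity and to stress hormones varied between libraries. All 12 immediate early genes tested of 16 had a log2 change above 0, with a median of 0.23 and 0 called. The sum of the list's means was 0.918, 1.96 and 1.31 in wild-type and 1.25, 1.82 and 2.02 in heterozygous libraries, and wild-type replicate 1 was the lowest. Without that library 9 of 13 tested were higher and the median was 0.06, and with size-factor scaling 11 of 12 were higher. Junb, a subunit of the AP-1 transcription factor, averaged 0.125 ± 0.0216 and 0.194 ± 0.0561, without overlap (SD, n = 3 each; 0.57 ± 0.19 SE, adjusted p = 0.405). Of 9 glucocorticoid-responsive genes tested of 10, 7 were higher (median 0.09), and the median was 0.16 without wild-type replicate 1 and 0.18 with equal sub-cluster weights. It was 0.05 with size-factor scaling (6 of 9 higher) and 0.06 without the sub-clusters of other cells (6 of 8). With matched nuclei 5 of 9 were higher. Fkbp5, a chaperone of the glucocorticoid receptor, averaged 0.418, 0.378 and 0.368 in wild-type and 0.460, 0.542 and 0.552 in heterozygous libraries, without overlap (0.40 ± 0.10 SE, adjusted p = 0.258, and 0.0316 with array weights). Errfi1, an inhibitor of the EGF receptor, averaged 0.134 and 0.176, also without overlap (adjusted p = 0.358).

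Of transcription factors that define medium spiny neurons, 13 of 15 were tested, 9 were higher (median 0.07) and 0 were called. The median was 0.11 without wild-type replicate 1 (11 of 13 higher) and with equal sub-cluster weights (10 of 13). It was 0.03 with size-factor scaling (9 of 13). Foxp1 averaged 13.1 ± 0.202 and 13.8 ± 0.573, and Bcl11b, needed for the maturation of these neurons, 3.58 ± 0.0910 and 3.84 ± 0.110 (SD, n = 3 each; adjusted p = 0.740 and 0.646). Foxo1 averaged 1.28 ± 0.112 and 1.52 ± 0.117, without overlap (SD, n = 3 each; 0.24 ± 0.09 SE, adjusted p = 0.443). Among the 9 D1-enriched genes outside the rule 6 were higher, and Pou3f1 averaged 0.134 and 0.170 (adjusted p = 0.522).

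**Figure D5:**
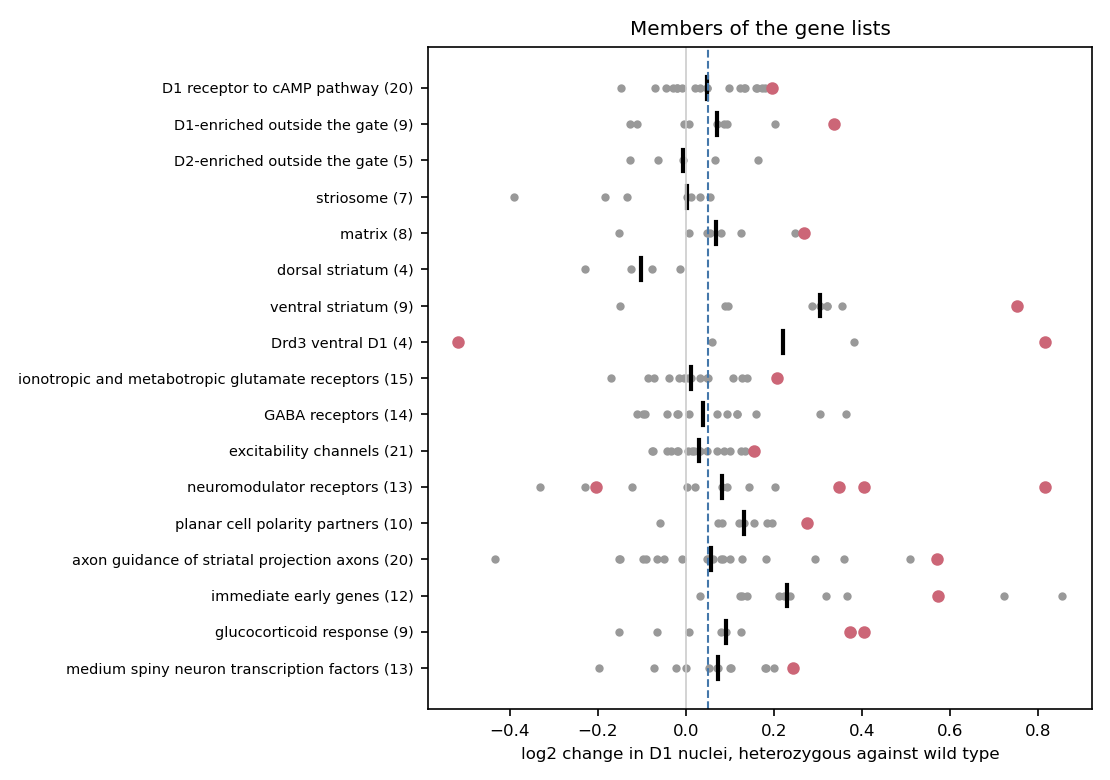
Log2 change in D1 nuclei, heterozygous against wild type, of each tested member of 17 gene lists (grey points; red, unadjusted p under 0.05), with the number of members tested in brackets, the median of each list as a black bar and the median of all genes, 0.05, as a dashed line. The ventral striatal list has a median of 0.30 and the immediate early list of 0.23, the dorsal list lies at -0.10, and no member of any list passed the adjustment over all genes.

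RNA of other cells was present in D1 nuclei of every library. The summed level of 6 oligodendrocyte genes per D1 nucleus was 5.88 to 6.75 in wild-type and 3.78 to 7.92 in heterozygous libraries, with 5 of the 6 lower in heterozygous libraries (median log2 change -0.27). St18, a transcription factor of oligodendrocytes, averaged 0.0763 and 0.0485, without overlap (adjusted p = 0.380). Pvalb, of fast-spiking interneurons, averaged 0.0808 and 0.0465 (adjusted p = 0.522). Otof, which is part of the rule, averaged 0.201 and 0.136. Their lists, of interneurons and of eccentric medium spiny neurons, each had 3 of 5 tested genes higher, with medians of 0.03 and 0.10, which were -0.08 and -0.09 with matched nuclei. The rule limits Otof, Col11a1, Casz1 and Tshz1 of the eccentric list and Drd2, Adora2a and Penk of the D2 list. The levels of both lists are therefore a description of the chosen nuclei. The lists of astrocytes, microglia, endothelial cells, oligodendrocyte precursors, glutamatergic neurons, interneurons, eccentric and D2 neurons had ranges of summed levels that overlapped between the groups, and the lowest mean of any of their genes was 0.00598, for Pthlh. The part of this RNA in the genotype differences was not tested beyond the stricter rule and the fit without the sub-clusters of other cells.

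Whether the genotype effect differed between D1 and D2 nuclei was tested in 1 model over both classes. limma called 0 of 12814 genes (0%), and 637 (4.97%) had an unadjusted p under 0.05. Leaving out 1 library gave 0 to 5 called genes, the most without heterozygous replicate 3 and 4 without wild-type replicate 1. Gpc5, a heparan sulfate proteoglycan, came closest. Its means in D1 nuclei were 0.424, 0.362 and 0.668 in wild-type and 0.414, 0.519 and 0.488 in heterozygous libraries, while those in D2 nuclei were 0.736, 0.489 and 0.792 and 0.844, 1.19 and 1.14 (difference of log2 changes -0.65 ± 0.10 SE, adjusted p = 0.0708). Gpc5 is also among the 10 leading genes of sub-cluster 6. It averaged 6.52 there and 0.282 in the other D1 nuclei. The D1 against D2 model was not run without the sub-clusters of other cells. The part of those nuclei in the Gpc5 difference was not tested. Foxp2, a transcription factor higher in D1 than in D2 nuclei, averaged 5.31 ± 0.293 and 5.58 ± 0.339 in D1 and 1.48 and 1.87 in D2 nuclei (SD, n = 3 each; difference -0.27 ± 0.04 SE, adjusted p = 0.0751). Without wild-type replicate 1 both passed, Gpc5 at -0.80 (adjusted p = 0.000311) and Foxp2 at -0.30 (0.0209), and both did with array weights (0.0163 and 0.0337). Gpc5 passed with matched nuclei (0.000751) and a pseudocount of 0.05 (0.0482) as well. Foxp2 did not pass with matched nuclei (0.263) or under the stricter rule, where its difference was -0.52 (0.531). With another library left out instead of wild-type replicate 1, neither gene passed (adjusted p = 0.0888 to 0.685).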

How the data were processed

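Nuclei of 3 wild-type and 3 Celsr3 heterozygous striata were deposited by the authors as 1 table of 24841 genes and 48834 nuclei. The deposited values are handled as a score, that is, UMI values corrected for depth and rounded to whole numbers. This was read from the values, whose totals per nucleus vary by a coefficient of variation of 10.7%, so depth is unknown and no counting intervals are given. The submitters' processing notes name Cell Ranger, Seurat 4.1 and the builds mm10 and GRCm38. Counting options and nucleus filters are not given in the sources used here. Coordinates are those of GENCODE for GRCm38, in which 13263 of the 13429 genes tested were found by symbol.

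Mean values per D1 nucleus and library were put on the scale log2(mean + 0.01). Genotypes were compared by limma 3.58.1 in R 4.3.3, with a trended prior and no covariates. Genes needed a mean of at least 0.02 and a summed value averaging 30 per library. P values were Benjamini-Hochberg adjusted over all genes tested, with a threshold of 0.05. All adjusted p in the text are from these limma fits. The D1 against D2 model had the library as a block. On simulated data for the D1 comparison (13435 genes), 97.9% of 2-fold and 100% of 4-fold changes were recovered, with 15 false calls. The simulation gave all genes the same spread between libraries, so these figures do not give the recovery in the real libraries. Shares used exact permutation tests.

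Sub-clusters used 1500 variable genes without those of the rule, 20 components, 15 neighbours and Leiden clustering at resolution 0.5 (scanpy 1.11.5, igraph 0.11.9, Python 3.11.15). A marker counted as higher at 1.5 times the other D1 nuclei and a mean of at least 0.1, and leading genes needed a mean of at least 0.3. No doublet caller was run; the limits of the rule and the sub-clusters were used instead.

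Named genes were Celsr3, every called gene, and the 10 higher and 10 lower genes of smallest unadjusted p with no overlap and a mean of at least 0.1, leaving out Gm and Rik symbols. List members were named at an unadjusted p under 0.05, or otherwise by size of change and level; other members in the text were chosen after their values were seen. From lists of other cells only the members at an unadjusted p under 0.05 were named. The 10 genes of highest mean were examined, of which only Malat1 is described. Alternatives were another pseudocount, no filter, size factors, a replicate block, array weights, a stricter rule (121 to 214 nuclei per library), matched nuclei (830 per library) and leaving out each library. The alternatives without the sub-clusters of other cells and with equal sub-cluster weights were chosen after seeing the data. Members and lists were chosen with earlier results of these data known.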

Additional observations from a re-analysis of the deposited data

How the results depend on the processing

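The count of called genes in D1 nuclei, 4 in the main analysis, was 134 with array weights, 0 under the stricter rule, 1 without the sub-clusters of other cells and 1 to 160 when 1 library was left out, the highest without wild-type replicate 1. In the stricter rule each library kept 121 to 214 D1 nuclei, and 7053 genes were tested. Mid1 and Gm15726 were not among them, while Rpl29 and A330015K06Rik were tested and lost their calls (adjusted p = 0.332 and 0.171). The cause of these moves was not tested. Of the uncalled genes named in the text that passed without wild-type replicate 1, none passed with another library left out. With the replicate block the count was 3, without A330015K06Rik (adjusted p = 0.0716). The labels do not say whether libraries of the same replicate number were paired. The deviations of same-numbered libraries from their group means correlated at 0.23, 0.03 and 0.15, and 2 of the 3 numbers matched best with themselves. Pairing by number was thus not settled. The D1 against D2 count, 0 in the main analysis, was 1 with a pseudocount of 0.05, 2 with array weights, 2 under the stricter rule, 2 with matched nuclei and 0 to 5 when 1 library was left out. Celsr3 passed without wild-type replicate 1 (-0.84) and with array weights (-0.75), in a range of -0.84 to -0.65 over libraries left out, and was too low for a test under the stricter rule. Finer clustering gave 21 sub-clusters. Of these, finer sub-cluster 19 (248 nuclei) was higher in 5 of 11 ventral and 4 of 6 eccentric markers. It was led by Fgf10, Htr4, Pde11a, Ntn1 and Nts. It held 11, 23 and 23 nuclei of wild-type replicates 1 to 3 and 102, 74 and 15 of heterozygous ones. Htr4, Pde11a and Ntn1 also lead sub-cluster 2, in which Drd3 is given by group. How many nuclei of finer sub-cluster 19 lie in sub-cluster 2 was not examined. Finer sub-cluster 9 (83 nuclei) was higher in all 6 glutamatergic markers and finer sub-cluster 13 (176 nuclei) in 5 of 7 interneuron markers.

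A few genes with small differences turned sign, and none of them was called. With array weights Adk stood at 0.016 and Ano3 at 0.012, and under the stricter rule Adk stood at 0.072, Gpr155 at 0.023 and Ano3 at 0.068. Ano3 was 0.022 with matched nuclei, 6.8e-05 without the sub-clusters of other cells and 0.034 with equal sub-cluster weights. With 1 library left out, Sp9 ranged from -0.30 to 0.0059, Adk from -0.088 to 0.060, Bach2 from -0.24 to 0.0029 and Ano3 from -0.056 to 0.011. Over 52 named genes, 695 of 760 values in alternatives kept their direction and side of the threshold, 16 lost a call, 33 gained one and 16 turned. The original depth of each nucleus is unknown, which limits the reading of low genes such as Gm15726 and Drd3.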
